A study of Homo sapiens with 32 samples.

Results

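The ZNF zinc-finger genes outside chromosome 19 are the protein-coding genes of the RefSeq table (GRCh38.p14) on chromosomes 1 to 18, 20 to 22 and X whose symbol is ZNF followed by digits. They number 263 of 19974 protein-coding genes and of 59084 genes in all on chromosomes 1 to 22 and X. The m6A peaks of 12 lists that overlapped each gene body by at least 1 bp were assigned to it. MeRIP-seq, an antibody pull-down of RNA fragments, located N6-methyladenosine (m6A) on RNA bound to chromatin, from 4 human cancer cell lines. The groups of each line were labelled WT control and METTL3 knockdown, METTL3 being the catalytic subunit of the m6A methyltransferase. The sample titles or list names call the groups shControl and shMETTL3, where sh commonly stands for short hairpin RNA. Both ovarian cancer lines, OVCAR8 and SKOV3, have 2 lists per group, and both colorectal cancer lines, LOVO and RKO, have 1 list per group. The labels give 2 libraries for each colorectal group, but the sources used here do not say how the second entered the list, so these values have no spread. The labels do not state whether the replicates are separate cultures.

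The members were chosen by symbol and not by protein domain. Most ZNF genes, but not all, encode proteins with arrays of C2H2 zinc fingers that read DNA sequence. Many also carry a KRAB domain, which recruits TRIM28 and through it the H3K9 methyltransferase SETDB1 and HP1 proteins, and their best known targets are transposable elements. The fingers of such a protein usually lie in 1 long terminal exon, and long internal exons and regions near stop codons are known sites of m6A. Chromosome 19 holds the largest clusters of the family, and the members described here are spread over the other chromosomes, with 35 on chromosome 7, 30 on chromosome 16, 20 on chromosome 1 and 19 on chromosome 3.

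Some lists resembled those of another label, which touches every comparison below. Over the 263 members, the peak numbers of the libraries labelled SKOV3 knockdown correlated with those of OVCAR8 control at Spearman 0.90, and with those of SKOV3 control at 0.56 to 0.59. The libraries labelled OVCAR8 knockdown correlated with SKOV3 control at 0.78 to 0.82 and with OVCAR8 control at 0.55 to 0.58. The points of these correlations share gene length and expression, and no test was made on them. Replicates of 1 group correlated at 0.94 to 0.96. LOVO knockdown and control correlated at 0.87, RKO knockdown and control at 0.60. The cause of these resemblances was not tested. The groups are given as labelled throughout. The intestinal markers CDX1, CDX2, CDH17, GPA33, LGR5 and VIL1 had peaks in colorectal lists and in no ovarian list, and in RKO the only one was CDX2, with 3 peaks in control. The ovarian marker MSLN had 3 to 7 peaks in each ovarian list, while EPCAM, WT1 and SOX17 had 0 in all 12 lists. MUC16 had 5 or 6 peaks in the OVCAR8 control and SKOV3 knockdown lists and 0 in the other lists. PAX8 had 3 to 6 peaks in each ovarian list except the OVCAR8 knockdown lists, which had 0, and it also had 1 peak in LOVO control and 5 in RKO control. A peak needs a transcript, and the RNA level was not analysed, so fewer methylated sites and less RNA cannot be told apart.

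The start sites of 28 of the 214 members in the RefSeq promoter table carried an own-strand peak in at least 1 list. The same share was not computed over all promoters, so whether it is high or low is not known. The window runs from 250 bases before to 50 after the start. The windows below are shown because ZNF398 and ZNF79 were the 2 members with such a peak in all 12 lists. ZNF638 had such a peak in 8 lists and 6 or 7 peaks in its body in every list. ZNF148 and ZNF789, with such a peak in 11 and 9 lists, are not shown, and their windows hold none of the sequences marked below. Nor do those of ZNF142, ZNF646 and ZNF830, with 8 lists like ZNF638. Capitals mark GGACT, a frequent m6A sequence, CCCGGAAG, an ETS-type sequence, GCGCATGCG, an NRF1-type sequence, and TGACGTCA, a CRE-type sequence, on either strand. The marked GGACT or AGTCC of ZNF398 and ZNF79 lie before the start site, outside the annotated transcript. ZNF398 lies on the plus strand at chr7:149126158-149126457, ZNF79 on the plus strand at chr9:127424132-127424431 and ZNF638 on the plus strand at chr2:71331532-71331831, all in GRCh38.p14.
ZNF398: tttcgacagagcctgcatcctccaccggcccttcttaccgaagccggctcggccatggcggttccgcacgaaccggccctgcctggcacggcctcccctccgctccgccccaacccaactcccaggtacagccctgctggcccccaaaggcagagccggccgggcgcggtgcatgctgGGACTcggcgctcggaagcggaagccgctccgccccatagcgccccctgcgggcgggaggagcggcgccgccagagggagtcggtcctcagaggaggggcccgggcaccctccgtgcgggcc
ZNF79: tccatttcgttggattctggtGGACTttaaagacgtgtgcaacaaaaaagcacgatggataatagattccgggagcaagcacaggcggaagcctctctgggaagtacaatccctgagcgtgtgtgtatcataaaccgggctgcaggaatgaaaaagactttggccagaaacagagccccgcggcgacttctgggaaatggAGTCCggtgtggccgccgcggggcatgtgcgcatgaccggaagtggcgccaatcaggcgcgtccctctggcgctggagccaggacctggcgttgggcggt
ZNF638: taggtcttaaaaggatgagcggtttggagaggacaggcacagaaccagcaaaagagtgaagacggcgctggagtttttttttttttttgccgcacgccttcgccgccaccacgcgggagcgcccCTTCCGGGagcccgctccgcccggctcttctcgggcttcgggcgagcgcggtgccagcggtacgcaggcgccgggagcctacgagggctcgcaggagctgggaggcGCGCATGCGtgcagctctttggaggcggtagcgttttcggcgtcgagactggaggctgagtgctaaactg

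Of these sequences, GGACT was found in 47.2% of the members' windows and in 44.2% of all 35116 promoter windows of the same length. CCCGGAAG was found in 14.5% of the members' windows against 3.90% of all, GCGCATGCG in 5.14% against 1.92%, and TGACGTCA in 4.21% against 1.85%. A match describes the letters of the window and was not tested as a bound or methylated site.

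Peaks were present in most members. A peak was found in some list in 243 of the 263 members, and 107 had one in all 12 lists, 40.7% of the members against 18.1% of the other protein-coding genes outside chromosome 19. The 20 members without a peak in any list were 7.60%, against 34.1% of those other genes, and they include ZNF423, ZNF385A, ZNF385D, ZNF804B and ZNF706. The median gene length was 24.7 kb in the members and 25.9 kb in the other genes. Of the ZNF genes of chromosome 19, 28.0% had a peak in all 12 lists, and of the ZSCAN, ZKSCAN, ZBTB and ZFP families outside chromosome 19, 50.7%. Of the members, 142 overlap the body of another gene, so some of their peaks may belong to that gene.

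Member peaks had a higher median width and a higher median strength than those of other protein-coding genes in each of the 12 lists, and the median width of related zinc-finger genes was also higher in each. Their median width lay between 322 and 433 bp over the 12 lists, against 291 to 325 bp in other protein-coding genes. Peaks of at least 1 kb made up 11.1% to 22.7% of the member peaks, against 6.46% to 9.47%. Median widths ran from 332 to 552.5 bp in the ZNF genes of chromosome 19 and from 342.5 to 469.5 bp in the ZSCAN, ZKSCAN, ZBTB and ZFP families. The median member peak stood between percentile 52.8 and 64.1 of strength in its list, where strength is the authors' −log10 p in the ovarian lists and their unexplained score in the colorectal lists. For members with a known strand, 89.6% to 97.2% of the peaks were on the gene's strand, against 82.8% to 91.5% in other protein-coding genes.

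The own-strand peaks leaned to the end of the gene body. The median peak lay at 57.8% to 70.9% of the way from start to end, against 52.6% to 58.8% in other protein-coding genes and 65.4% to 80.3% in the ZNF genes of chromosome 19. In the median list 20.1% of the member peaks fell into the final 10% of the gene body and 11.5% into the first 10%, against 18.03% and 15.2%. The ranges over lists overlapped in the final 10% and in the first 10%, and no test was made on either.

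**Figure D1:**
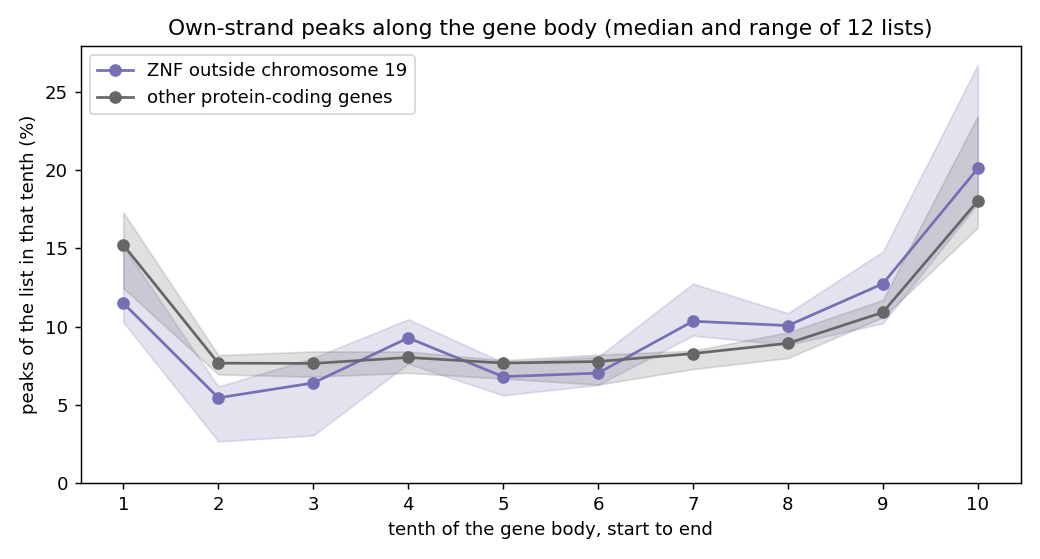
Percent of own-strand peaks (vertical axis) in each of 10 equal parts of the gene body from start to end (horizontal axis), with lines for the median and bands for the range over 12 lists. The members have 20.1% of their peaks in the final part in the median list, against 18.03% in other protein-coding genes.

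The members with the strongest peaks code for proteins of varied roles. ZNF646 had a strongest peak with a median width of 4805 bp over the 12 lists, between 218 bp in RKO knockdown and 5646 bp in OVCAR8 control 2. ZNF451, a SUMO ligase, had a median width of 1557 bp, and ZNF239, which binds DNA and RNA, of 1445 bp. The strongest peaks of ZNF407, ZNF638 and ZNF398 had median widths of 1176, 1397 and 1520 bp. All 6 had a median percentile of strength over lists between 98.3 and 98.8.

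Peak numbers in members were close between replicates. OVCAR8 control lists had 466 and 471 member peaks and OVCAR8 knockdown lists 442 and 430. SKOV3 control lists had 580 and 582, and SKOV3 knockdown lists 469 and 498. LOVO control had 635 and LOVO knockdown 543, and RKO control had 716 and RKO knockdown 699. In each line every knockdown list had fewer member peaks than every control list.

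Set beside the whole list, the difference was smaller in OVCAR8 and RKO, larger in SKOV3 and alike in LOVO. In OVCAR8 control lists averaged 468.5 ± 3.54 and knockdown lists 436 ± 8.49 (SD, n = 2 each), 6.94% lower, while all peaks were 45.2% fewer, and the members' share of the list was 1.64% in control and 2.79% in knockdown. In SKOV3 the members had 16.8% fewer peaks in knockdown and all peaks were 8.58% fewer. In LOVO the values were 14.5% and 14.3%, and in RKO 2.37% and 9.05%. With an equal number of peaks taken from each list, the log2 ratio of knockdown over control member peaks was 0.63 in OVCAR8 and 0.12 in RKO, against -0.10 and -0.03 with all peaks, so the direction in these lines turned with the scaling. With 2 lists against 2 an exact permutation test cannot pass a threshold of 0.05, and no test was made.

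**Figure D2:**
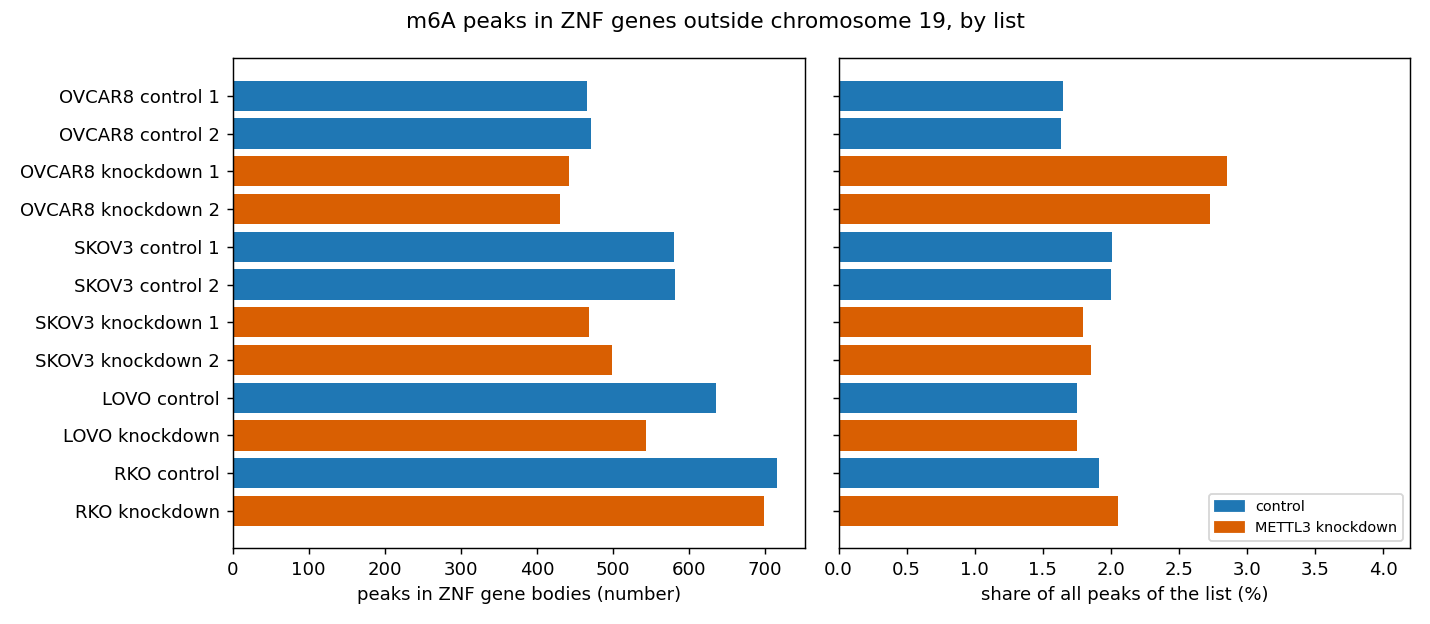
Bars give the number of peaks in member gene bodies (left) and their percent of all peaks of the list (right) for each of the 12 lists, blue for control and orange for METTL3 knockdown. The OVCAR8 knockdown lists have 442 and 430 peaks but the highest shares, 2.85% and 2.73%.

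Between 32.4% and 41.8% of the members' control regions had no knockdown peak. A control region is a same-strand merge of peaks found in every control list of the line, and it was counted as lost if no knockdown peak overlapped it by 1 bp. In OVCAR8 135 of 411 member regions were lost, 32.8% (95% Wilson interval 28.5% to 37.5%), against 57.8% of all regions. With an equal number of peaks per list the OVCAR8 values were 20.5% and 44.5%. In SKOV3 204 of 524 were lost, 38.9% (34.9% to 43.2%), against 44.4%. In LOVO 206 of 635 were lost, 32.4% (28.9% to 36.2%), against 37.8%. In RKO 299 of 716 were lost, 41.8% (38.2% to 45.4%), against 60.1%. These intervals cover counting error only, and regions of 1 gene are not independent. Against SKOV3 control, the OVCAR8-labelled knockdown lacked 30.9% of the member regions and 44.3% of all regions. Against OVCAR8 control, the SKOV3-labelled knockdown lacked 3.89% of the member regions and 14.6% of all regions.

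Loss was lower in stronger regions, in members as in all regions. When all regions were weighted to the members' peak strengths, in 10 classes of strength, 55.3% were lost in OVCAR8. The weighted loss was 41.0% for SKOV3, 33.8% for LOVO and 55.3% for RKO. These values lay within the interval of the members' loss in SKOV3 and LOVO, and above it in OVCAR8 and RKO. Related zinc-finger genes were also below their weighted loss in OVCAR8 and RKO. The ZNF genes of chromosome 19 lost 21.6% against a weighted 56.7% in OVCAR8, and 26.3% against 54.5% in RKO. The ZSCAN, ZKSCAN, ZBTB and ZFP families lost 39.9% against 55.1% in OVCAR8, and 35.0% against 52.7% in RKO. Among the strongest of 3 strength classes, OVCAR8 lost 11.7% of the member regions and 34.7% of all regions. For SKOV3 these shares were 19.7% and 26.6%, for LOVO 9.1% and 13.7%, and for RKO 18.6% and 39.6%. Among the weakest class, the members lost 55.3%, 60.7%, 61.5% and 67.6% in the same order of lines, and all regions 75.9%, 59.5%, 58.9% and 76.0%. Lost member regions were narrower, with a median width of 298 bp in OVCAR8 against 554.5 bp of the kept ones.

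**Figure D3:**
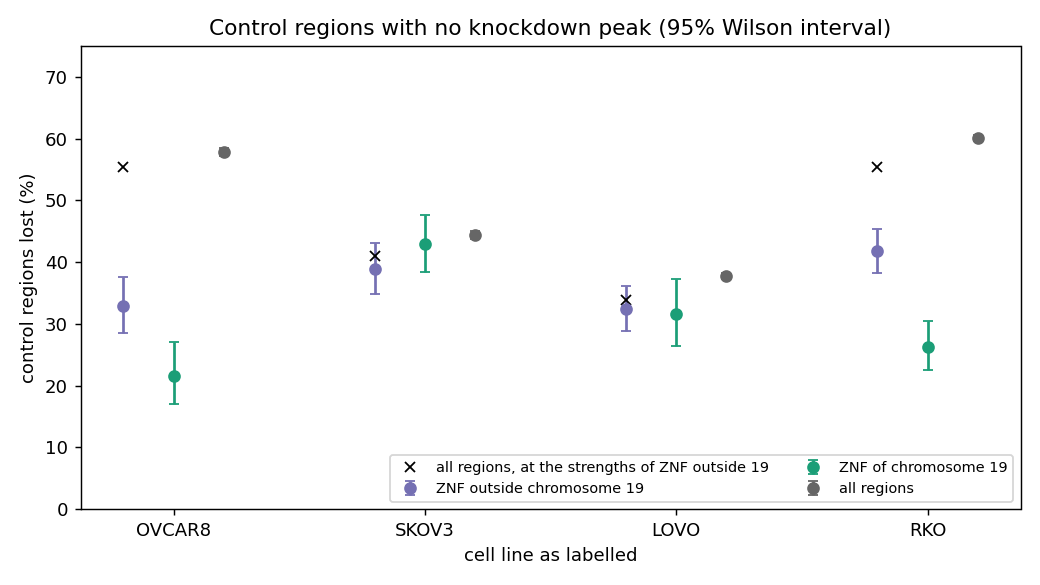
Percent of control regions lost (vertical axis) in each line as labelled, with 95% Wilson intervals as bars. Crosses give the loss of all regions at the strengths of the ZNF genes outside chromosome 19, which is 55.3% in OVCAR8, where 32.8% of the member regions were lost.

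**Figure D4:**
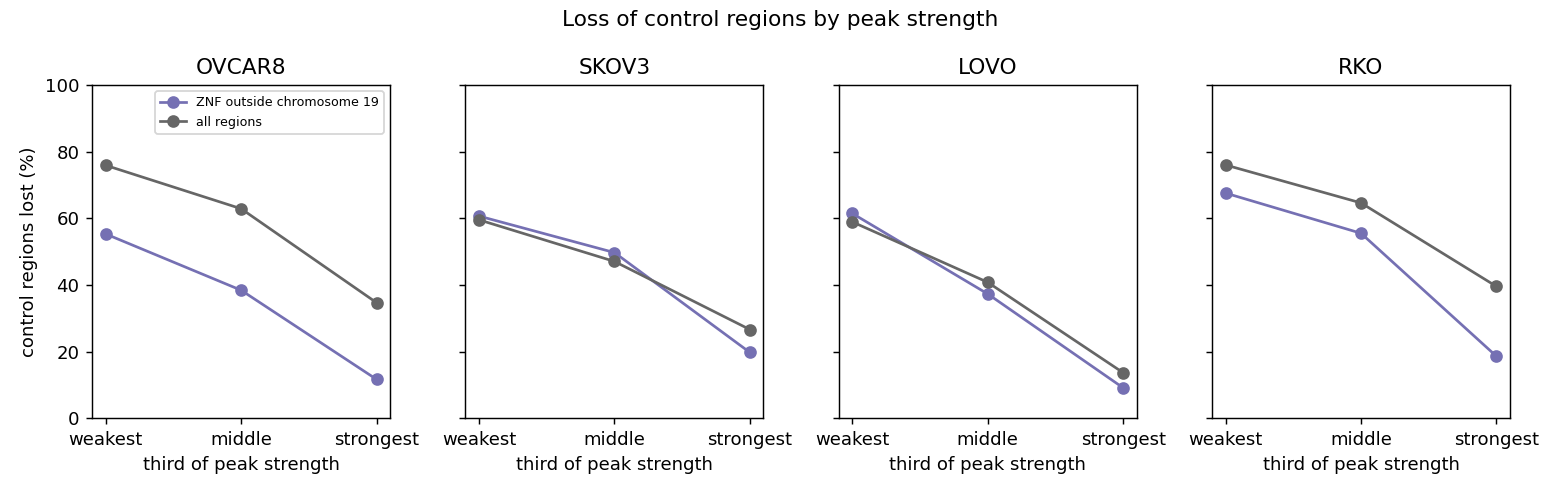
Percent of control regions lost (vertical axis) by class of peak strength (3 classes) within the control lists, for the members and for all regions, 1 panel per line. In OVCAR8 the members' loss goes from 55.3% in the weakest class to 11.7% in the strongest.

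Gain was also measured. Of the OVCAR8 knockdown regions in members 26.6% had no control peak, against 25.9% of all knockdown regions. For SKOV3 the shares were 20.4% and 36.5%, for LOVO 17.5% and 26.9%, and for RKO 35.1% and 54.9%. The ZNF genes of chromosome 19 lost 21.6%, 42.9%, 31.5% and 26.3% of their control regions in the same order of lines. The ZSCAN, ZKSCAN, ZBTB and ZFP families outside chromosome 19 lost 39.9%, 26.9%, 31.4% and 35.0%. The differences from the members were not tested.

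Per gene, members went both ways. In OVCAR8, of 198 members with a peak in the line, 58 had fewer peaks in both knockdown than in both control lists and 50 had more, where 46.3% and 15.3% of all genes did so. In SKOV3 84 of 214 had fewer and 48 more, against 31.6% and 26.3% of all genes. In LOVO 32 of 193 were lower by at least 2 times in knockdown and 7 higher by at least 2 times, taken on the peak number plus 1, against 20.4% and 10.4%. In RKO the counts were 31 and 41 of 233, against 30.5% and 25.9%. Members apart in both ovarian lines numbered 78, and 66 of them went in opposite directions in OVCAR8 and SKOV3 as labelled, 84.6%, against 4397 of 4709 among all genes, 93.4%.

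The opposite pattern is plain in single genes. ZNF469, known from brittle cornea syndrome, had 14 and 16 peaks in the OVCAR8 control lists and 0 in both knockdown lists of that line. The SKOV3 control lists had 2 and 0, the SKOV3 knockdown lists 13 and 15. All 13 of its OVCAR8 control regions were lost. ZNF704 had 8 peaks in each OVCAR8 control list, 0 in both OVCAR8 knockdown and both SKOV3 control lists, and 5 and 6 in SKOV3 knockdown. ZNF532 had 7 and 7, then 0, 0, 0 and 0, then 6 and 7 in the same order. In these genes the libraries labelled SKOV3 knockdown were high with OVCAR8 control. The groups did not overlap within either line. The naming rule asked for this in OVCAR8, and for ZNF469 and ZNF704 also in SKOV3, so it is no separate result there.

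Other members ran the other way round. ZNF827, which recruits the NuRD complex to telomeres, had 0 peaks in both OVCAR8 control lists against 5 and 4 under knockdown. It had 6 in each SKOV3 control list against 0 in both under knockdown. In the same order of groups ZNF519, a KRAB gene, had 0 and 0, then 4 and 4, then 15 and 11, then 3 and 3. ZNF250 had 0 and 0, 5 and 5, 5 and 6, and 0 and 1. ZNF7 had 1 and 1, 5 and 7, 9 and 9, and 4 and 3, but at most 1 of its peaks in any list lay in no other gene. ZNF782 followed the first pattern, with 13 and 11 peaks, then 4 and 3, then 5 and 5, then 8 and 9.

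Some members had peaks in few lines. ZNF804A, a gene linked to psychiatric disease, had 12 to 20 peaks in every ovarian list and 0 in all 4 colorectal lists. ZNF385B had 9 peaks in LOVO control and 1 in LOVO knockdown, 0 in both RKO lists, and at most 1 in any ovarian list. ZNF362 had 0 in all 8 ovarian lists, and its 10 peaks in RKO knockdown against 3 in control were mostly on the opposite strand, with 2 on its own. With 1 list per colorectal group, line and library cannot be told apart.

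Some members had fewer peaks under knockdown in both colorectal lines. Of those given here, only ZNF438 was lower by at least 2 times in both. ZNF438, a transcriptional repressor, had 8 peaks in LOVO control against 2 under knockdown, and in RKO 12 against 2. ZNF215, an imprinted gene, had 7 against 4 peaks for LOVO, and 8 against 0 for RKO. ZNF106 had 10 against 3 peaks for RKO, and 7 against 6 for LOVO. These have no replicate check.

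The members with the highest peak numbers over all lists differed in how even they were. ZNF638, which silences unintegrated retroviral DNA with the HUSH complex and whose start window is printed above, had 6 or 7 peaks in each of the 12 lists. ZNF142 had 8 to 12 peaks per list, and lost 0 of 7 control regions in each ovarian line, 0 of 10 for LOVO and 3 of 12 for RKO. ZNF276 had 7 to 16 peaks, of which 6 to 9 were on its own strand. ZNF407 had 4 to 12 peaks, ZNF37A 4 to 10, ZNF692 1 to 11 and ZNF462 5 to 15.

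Of 128 members with a control region in all 4 lines, 5 lost at least 1 region in each line, 3.91% against 9.49% of the 5761 such genes in all. None was lost in any line in 13 members, 10.2% against 11.7%. The 5 with loss in each line were ZNF124, ZNF282, ZNF318, ZNF778 and ZNF496. ZNF282, which binds a viral U5 element, lost 3 of 8 OVCAR8 regions, 1 of 5 SKOV3 regions, 2 of 7 LOVO regions and 4 of 7 RKO regions. ZNF124 lost 8 of 11 in SKOV3, but only 2 of its 12 and 11 peaks there were on its own strand in each control list.

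**Figure D5:**
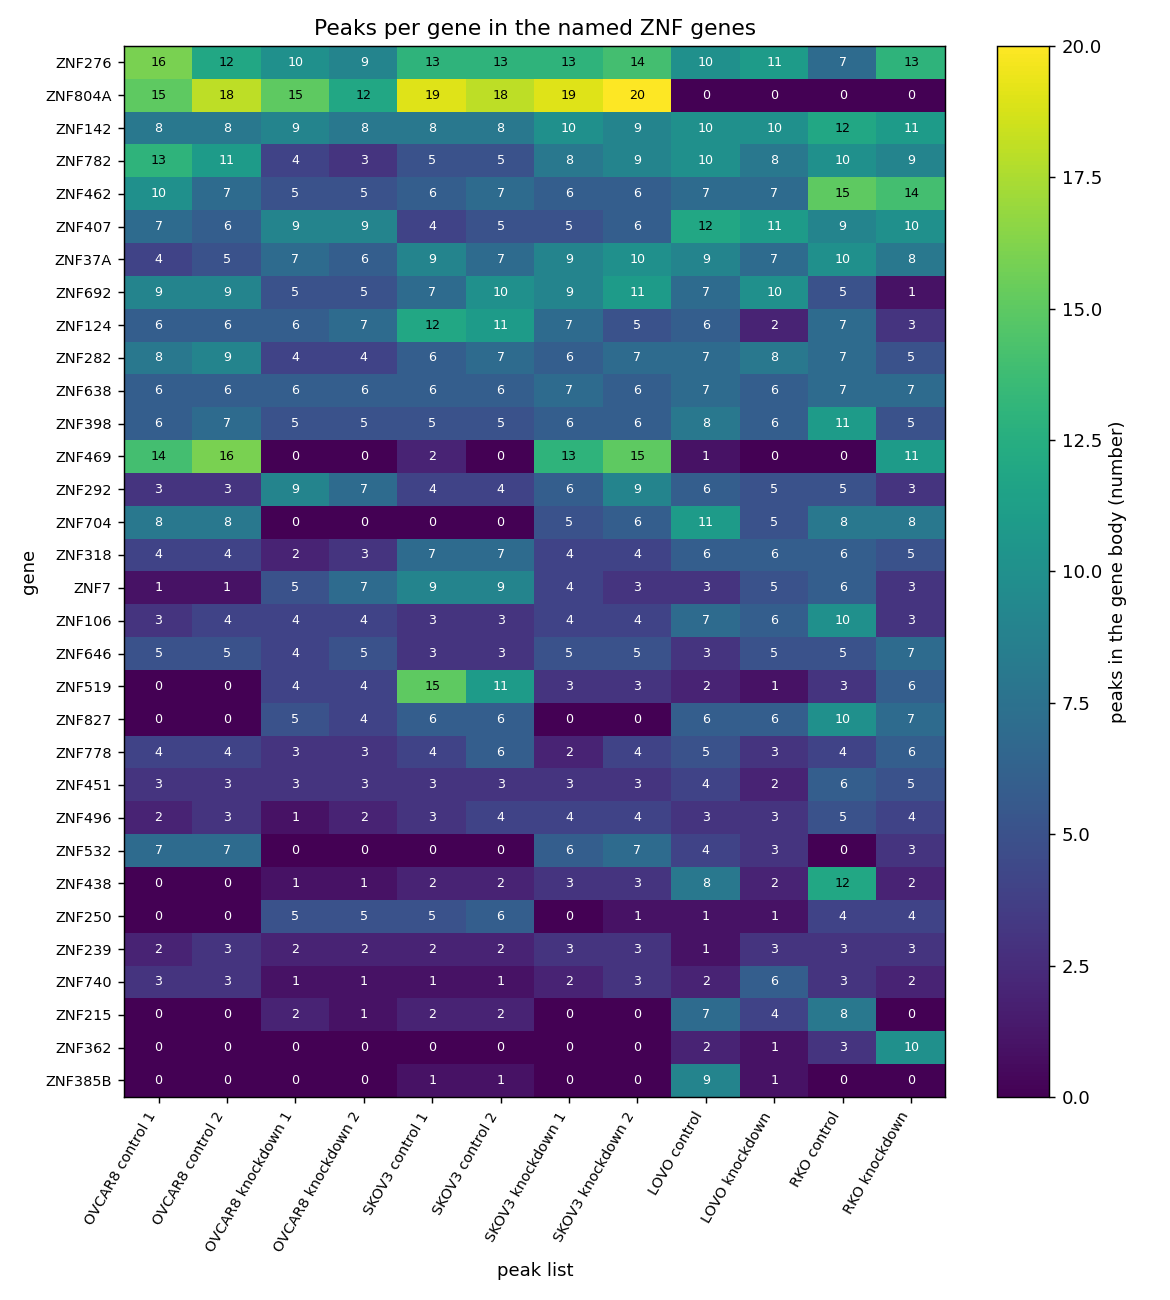
Number of peaks per gene body (colour and printed number) for the 32 named members in each of the 12 lists, ordered by mean. ZNF638 has 6 or 7 peaks in every list, while ZNF804A has 12 to 20 in the ovarian lists and 0 in the colorectal ones.

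The partners of KRAB proteins also carried peaks, and they are a list of 20 genes. TRIM28, the corepressor, had 0 or 1 peak per list. SETDB1 had 2 to 5 peaks and TASOR, a HUSH subunit, 4 to 7, with a peak in all 12 lists. EHMT1, an H3K9 methyltransferase, had 32 and 33 peaks in the OVCAR8 controls against 9 and 9 under knockdown, while the SKOV3 controls had 11 and 10 against 23 and 22. Of 17 partners with a peak in OVCAR8, 7 had fewer peaks in both knockdown lists and 1 had more, and of 17 in SKOV3, 5 had fewer and 7 more, beside the shares of all genes given above of 46.3% and 15.3% in OVCAR8 and 31.6% and 26.3% in SKOV3.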

How the data were processed

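Per the labels' protocols, methylated RNA was pulled down with an antibody kit after spike-in addition, and strand-specific libraries were read from both ends. The submitters' processing notes name MACS2 2.2.7.1, HISAT2 2.1.0, Bowtie2 2.4.2 and Trim Galore 0.6.6, without roles, and the build hg38. The authors deposited 1 list per ovarian library, with a fold enrichment (a linear ratio) and −log10 p and q values per peak, and 1 list per colorectal group with an unexplained score as deposited. No read totals were used here, so depth is unknown.

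Peaks were joined to RefSeq gene bodies, which have no exons, with Python 3.11.15 and pandas 2.3.3. Members and lists were chosen with earlier results of these data known. Named genes are those with the highest median or smallest peak number, most lost or gained regions per line, loss in every line, the largest range of controls, or the strongest peaks. Those with most lost or gained regions were taken only from members with fewer, or more, peaks in every knockdown than in every control list.

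The planned test was limma 3.58.1 (R 4.3.3) with trended eBayes on log2(peaks + 1) over the 8 ovarian lists. On simulated data most of its calls were false. Of 8 forms of the fit tried there, 4 variance models with 2 filters, 6 made too many false calls and 2 made no call, so the report uses no calls or p-values from it, and no gene was named by it. One of the replacement forms had also been run on the real lists before this was settled. Replicate numbers did not pair the lists, with correlations of deviations from -0.010 to 0.029.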

Additional observations from a re-analysis of the deposited data

Results flagged for a closer look

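In 11 named members every OVCAR8 knockdown list lay on one side of both controls and every SKOV3 knockdown list on the other side. Some of the 11 were named because their lists lay apart, so the count is no separate result. Of all members apart in both ovarian lines, 84.6% went in opposite directions, against 93.4% of all such genes. The difference between the lines was not tested, and the library labels noted above bear on all 11 members. As knockdown minus control peaks in OVCAR8 minus the same in SKOV3, the value was -28.0 in ZNF469, 14.0 in ZNF519, -13.5 in ZNF532 and in ZNF704, -12.0 in ZNF782, 10.5 in ZNF7 and in ZNF827, 10 in ZNF250, 3.5 in ZNF215, -3.5 in ZNF740 and -2.5 in ZNF398.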

How the results depend on the processing

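Loss of member regions moved with the overlap rule: with a knockdown peak over 50% of the region it was 42.3% for OVCAR8, 49.2% for SKOV3, 42.0% for LOVO and 53.2% for RKO. Under the same rule the loss over all regions was 66.35%, 52.4%, 45.4% and 67.9%, so all regions moved as well. In OVCAR8 the members' loss was 20.5% with an equal number of peaks per list (all regions 44.5%). It was 38.7% over regions of any control list (all regions 63.7%), and 35.8% to 37.7% without 1 replicate (all regions 60.3% to 61.4%). In SKOV3 it was 33.2% on the own strand (added after seeing the data) and 3.89% against the other ovarian control (all regions 14.6%). Without 1 replicate it was 40.7% to 41.6% (all regions 46.7% to 48.0%). In RKO it was 31.0% at the stricter peak threshold (all regions 52.0%). That threshold was 5, on −log10 q in the ovarian lists but on the unexplained score in the colorectal lists. The median score of all peaks was 5.19 in RKO control and 8.41 in RKO knockdown. Whether the cut was equally strict in both RKO lists is not known, which also limits the RKO peak ratio at this threshold. The log2 ratio of member peaks turned to 0.63 in OVCAR8 and 0.12 in RKO with an equal number of peaks, to 0.44 in RKO at the stricter threshold and to 0.045 in SKOV3 against the other control. It was -0.41 in OVCAR8 against the other control, -0.20 in SKOV3 on the own strand and -0.0044 in LOVO with an equal number of peaks. Without 1 replicate it was -0.12 to -0.08 in OVCAR8 and -0.31 to -0.22 in SKOV3. The cause was not tested. The planned limma fit, whose calls were mostly false on simulated data, is given for the record only. At an adjusted p under 0.05 it called 47 of 211 members lower and 17 higher in ovarian knockdown, 22.3% and 8.06%. Of all 12469 genes tested, 29.0% were called lower and 3.22% higher. Between the ovarian controls it called 102 members. In OVCAR8 control 34.1% of the members were lower and 14.2% higher, against 28.3% and 24.7% of all genes. Shares over all genes are given for this main form of the fit only. Scaled to list totals it called 30 lower and 74 higher, with an equal number of peaks 6 and 32, and with the stricter filter 29 lower. With the residual variance pooled over genes of like mean, an added form that also made too many false calls, it called 45, 12 and 117. With the replicate block it called 42 lower, 16 higher and 97 between controls. Without 1 replicate it called 32 to 54 lower, 16 to 22 higher and 67 to 105 between controls. The other alternatives kept the direction. No read depth is known, and the colorectal groups have 1 list each, with no spread.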
